A study of Homo sapiens with 6 samples.

Results

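The stretches of coding sequence recovered with CELF1 in 2 melanoma cell lines were examined here. The established human melanoma lines SK-Mel-103 and UACC-62 were fixed with formaldehyde, CELF1 (also called CUGBP1) was pulled down with an antibody, and the co-purified RNA (IP) was sequenced in parallel with RNA of the lysate (input). One IP came from SK-Mel-103 (replicate 1, R1) and 2 from UACC-62 (replicates 1 and 3, R1 and R3), each paired in the peak call with its own input, and triplets of values follow the order SK-Mel-103 R1, UACC-62 R1, UACC-62 R3. The SK-Mel-103 values therefore lack a replicate. No treatment other than the fixation is given in the labels, and the labels describe the IP RNA as polyadenylated. The study's methods differ from this label: they describe removal of ribosomal RNA and name no poly(A) selection for the IP RNA. Nothing in the sources used here says whether the UACC-62 replicates were separate cultures.

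The deposited lists hold bins of 20 bp that passed the authors' peak call, with their IP reads. A bin was retained when it held more than 30 IP reads in all 3 samples and its centre lay in a coding sequence (CDS) and in no 3′ UTR of a protein-coding transcript. Of 30842 bins common to the 3 samples, 3861 (12.5%, Wilson 95% interval 12.2 to 12.9) met this rule, against 24498 in 3′ UTRs. They lay in 534 genes. The bins were thus selected on their IP reads, and these reads, and IP over input which contains them, are given as a description without a test. Intervals cover counting error only, and adjacent bins are not independent of each other. The count rests on all 3 lists being required. It was 6087 without SK-Mel-103 R1, 5818 without UACC-62 R1, and 4073 without UACC-62 R3.

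CELF1 belongs to the CUG-BP and ETR-3-like family of RNA-binding proteins. It is known to recognize U- and G-rich elements built around UGU, mostly in 3′ UTRs, and to affect the decay, translation and splicing of the mRNAs that hold them. A coding region is traversed by ribosomes, and RNA immunoprecipitation can recover parts of a transcript other than the site that is contacted.

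The lists held 780750 to 862731 bins with 10958459 to 14436573 IP reads and 8453517 to 10161917 input reads a sample. No bin had fewer than 4 IP reads. The melanocyte lineage was represented unevenly. SOX10, a transcription factor of this lineage, had 864, 2115 and 1080 input reads in the order given, whereas TYR, the tyrosinase of pigment synthesis, was listed in both UACC-62 replicates and in no bin of SK-Mel-103. DCT and SLC45A2 were likewise listed in UACC-62 only. MITF had 18, 6026 and 4999 input reads and MLANA 18, 826 and 922. SOX10 was thus the only listed marker of this lineage with many input reads in SK-Mel-103. In such bulk samples, fewer cells with an RNA and less RNA per cell cannot be told apart. PMEL, TYRP1, GPR143 and OCA2 were listed in no coding or 3′ UTR bin of any sample. The 3 keratinocyte markers examined were in no such bin either, and the endothelial and leukocyte markers had at most 3 input reads in a sample. In the IP, the leukocyte marker PTPRC had 0, 25 and 8 reads and the endothelial marker VWF 0, 0 and 5.

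For the genes that carry the results, the common CDS bin with the most IP reads (by the lowest of the 3 samples) is shown 5′ to 3′ on the transcript strand, as DNA letters of the GRCh37 reference, with each TGT (UGU in the RNA) in capitals. The first 7 genes are among the 10 with the highest IP over input in their coding region, of those with at least 3 common CDS bins, and the last 5 had some of the largest numbers of such bins.
JUND, coding exon 1 of 1, chr19:18391261-18391280, minus strand: ctgccccagcaccaggtgcc
FGF13, coding exon 5 of 6, chrX:137717741-137717760, minus strand: gacatattcatcaatgatat
SLC25A1, coding exon 8 of 9, chr22:19163981-19164000, minus strand: aggcgcacaaataccggaac
DYNLL2, coding exon 2 of 2, chr17:56166521-56166540, plus strand: aaccctacctggcatTGTat
HDDC2, coding exon 4 of 6, chr6:125614001-125614020, minus strand: ggacctcagaaaggagctct
CREBL2, coding exon 3 of 4, chr12:12790561-12790580, plus strand: ctactcactggagaagagca
SIAH1, coding exon 2 of 2, chr16:48395541-48395560, minus strand: caccagcattgcacagcttt
HSPA8, coding exon 7 of 8, chr11:122929001-122929020, minus strand: ggacaaacagaagattctgg
EIF4G2, coding exon 10 of 21, chr11:10824601-10824620, minus strand: atggaccaaagacgatcaat
TUBA1B, coding exon 4 of 4, chr12:49521881-49521900, minus strand: tgccaagcgtgccttTGTtc
DCBLD2, coding exon 16 of 16, chr3:98518241-98518260, minus strand: gcaggaagggatggggaatg
EEF2, coding exon 3 of 15, chr19:3983181-3983200, minus strand: ttgactcccccgggcaTGTc

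Of these 12 bins, 3 hold a UGU, namely those of DYNLL2, TUBA1B and EEF2. Over all members, 907 of 3861 bins (23.5%) held a UGU, against 23.9% of the 32692 windows of 20 bp that tile the coding sequences of the same genes, 22.7% of 1703308 windows over all coding sequences and 40.5% of the common 3′ UTR bins. The coding bins therefore held a UGU about as often as the coding sequence around them. The same was seen for UGUG (8.34% of members, 8.31% of windows of the same genes, 11.5% of 3′ UTR bins), GUGU (5.36%, 5.30% and 8.90%) and UGUU (6.40%, 6.85% and 15.9%), which overlap UGU. CUG was found in 36.5% of members and in 35.9% of windows of the same genes. UUUU was found in 4.38%, 5.77% and 21.1%, respectively. All motifs were read on the transcript strand only, and G and C made up 49.2% of the bases of members, 49.1% of those of the same coding sequences and 38.7% of those of 3′ UTR bins. A match is no more than the presence of these letters in the bin.

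IP over input was low in most coding bins. It is given as log2 of IP reads over input reads, each divided by its total over the listed bins, with a pseudocount of 1 read. The median over coding bins was −1.03, −1.90 and −1.51 (UACC-62 mean −1.71 ± 0.27, SD, n = 2), where the common 3′ UTR bins had medians of 1.36, 1.40 and 1.45 (UACC-62 mean 1.43 ± 0.039, SD, n = 2). The bins of both regions were selected by the same cut on IP reads. Their median IP reads were 70, 55 and 88 in coding bins and 67, 73 and 102 in 3′ UTR bins. The input reads differed more, with medians of 117, 172 and 137 reads in coding bins and 21, 28 and 25 in 3′ UTR bins. Every coding bin had thus passed the filter on IP reads, but the typical one also held many input reads. No input read was held by 14, 11 and 6 coding bins (0.36%, 0.28% and 0.16%) and by 0.88%, 0.49% and 0.76% of 3′ UTR bins.

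In all 3 samples, 595 coding bins (15.4%, Wilson 95% interval 14.3 to 16.6) had a log2 IP over input above 0 and 2705 (70.1%) a value below 0, and 561 changed sign. Over all 30842 common bins, 66.7% were above 0 in all 3 samples, and over the 3′ UTR bins alone 73.8%. The share of coding bins above 0 was 26.1% without SK-Mel-103 R1, 8.65% without the filter on IP reads and 7.09% with more than 100 IP reads. The UACC-62 replicates had the same sign in 90.6% of the coding bins. R3 was the higher one in 77.4% of them, by a median of 0.40 on the log2 scale.

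**Figure D1:**
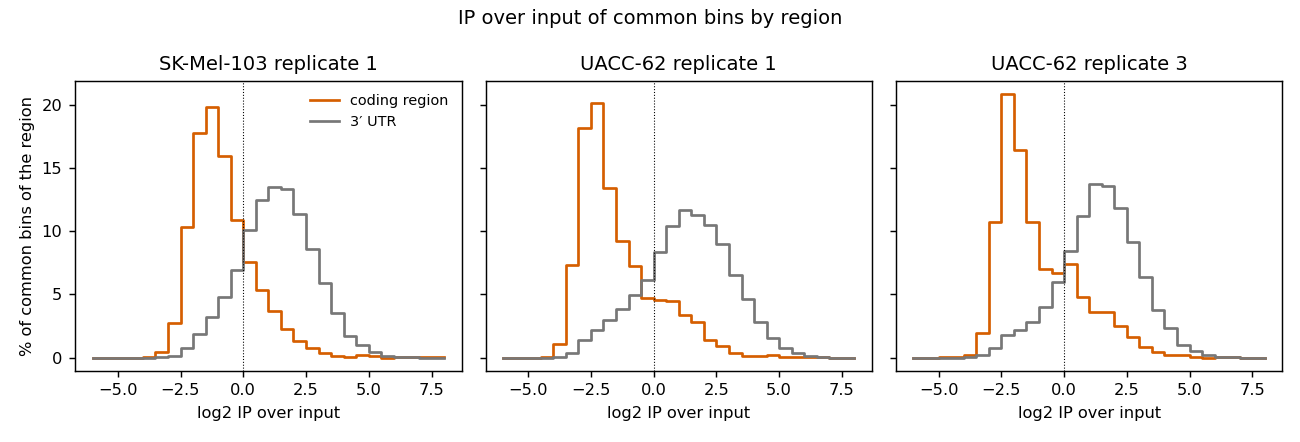
Distribution of log2 IP over input (x axis, steps of 0.5) in the 3 samples for the 3861 common bins in coding regions and the 24498 in 3′ UTRs, as % of the bins of the region (y axis); the dotted line marks 0. The coding bins peak below 0 and the 3′ UTR bins above 0 in each sample, with medians of −1.03, −1.90 and −1.51 against 1.36, 1.40 and 1.45.

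The members just inside and just outside the read threshold were alike. The 201 members whose lowest count was 31 IP reads had median log2 IP over input of −0.83, −1.58 and −1.21, and the 208 coding bins whose lowest count was 30 had −0.80, −1.55 and −1.27. Without any filter on reads, 73837 coding bins in 5615 genes were listed in all 3 samples, and 9.51% of these genes had a member.

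The bins were spread unevenly over genes. A single bin was found in 140 genes, at least 3 in 314 and at least 20 in 45, with a median of 3. The 10 genes with the most bins held 533 of them (13.8%). HSPA8, the constitutive HSC70 chaperone, had 75, which covered 76.5% of its coding windows. It was followed by EIF4G2, a translation initiation factor related to eIF4G, with 59, the α-tubulins TUBA1B and TUBA1C with 56 each, the chaperone HSP90AA1 with 55, the β-tubulin TUBB with 52, the glycolytic pyruvate kinase PKM with 47, the membrane protein DCBLD2 with 46, the elongation factor EEF2 with 45 and the intermediate filament protein VIM with 42. All but DCBLD2 and TUBA1C were below 0 in all 3 samples when reads were summed over their common CDS bins.

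HSPA8 (ENSG00000109971, chr11:122928197-122933938) had 12538, 10005 and 11653 IP reads in its common CDS bins, against 32033, 63343 and 39465 input reads. Its log2 IP over input was −1.73, −2.82 and −2.46, and none of its 75 bins was above 0 in all samples. In 36 of the 75, the 32 nt centred on the bin (the bin and its flanks) occur more than once in the genome (repeated sequence), which makes their read counts uncertain. Its 3′ UTR bins had −1.50, −2.84 and −2.47, so that both regions of this mRNA had nearly the same value in the UACC-62 samples.

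TUBA1C was the one gene of these 10 with differing signs, at −0.62, −0.95 and 0.75. Of its 56 bins, 40 lie at the centre of 32 nt that occur more than once in the genome, as did 45 of the 56 bins of TUBA1B. Values of these α-tubulin genes are therefore uncertain. DCBLD2 was above 0 in every sample, at 0.22, 0.81 and 0.38, with 12635, 4728 and 3197 IP reads and 8360, 2413 and 1509 input reads. SK-Mel-103 had the most reads of both kinds and the lowest ratio.

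Among all 534 genes, 371 (69.5%) had a coding region below 0 in all 3 samples, 95 (17.8%) above 0 and 68 were mixed. Over all 5615 genes with a listed coding bin, at any read count, 71.4% were below and 8% above 0 in all 3. The genes below and above 0 had the same median number of common CDS bins, 4. They differed in the input, with median input reads per bin of 139, 195 and 158 for genes below 0 against 20, 25 and 21 for genes above 0. They also differed in the number of common 3′ UTR bins, with a median of 4 in genes below 0 and 41 in genes above 0. The input reads are the denominator of the ratio that splits these genes, and the part of transcript abundance in the result was not tested.

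The 10 genes with the highest coding-region IP over input, by the lowest of 3 samples among genes with at least 3 bins, were JUND, FGF13, SLC25A1, DYNLL2, HDDC2, CREBL2, RNF139, POMK, SIAH1 and ARL2BP. Each of their bins was above 0 in all 3 samples. JUND, a subunit of the AP-1 transcription factor encoded by 1 exon, stood highest at 3.01, 4.68 and 2.91. These values rest on 4 bins with 292, 257 and 158 IP reads against 27, 8 and 12 input reads, so that the input limits their precision. The JUND bin shown above lies 1024 nt into a coding sequence of 1041 nt and holds no UGU.

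FGF13, an intracellular member of the fibroblast growth factor family, had 11 bins in coding exons 3 to 6. Its values were 2.74, 3.03 and 4.03, with 431, 1126 and 2460 IP reads and 49, 123 and 92 input reads. IP reads were lowest in SK-Mel-103 R1 and highest in UACC-62 R3, input reads were highest in UACC-62 R1, and the replicates of UACC-62 differed by as much as the cell lines did.

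SLC25A1, the mitochondrial citrate carrier, had 14 bins at 2.39, 2.39 and 3.36. Its IP reads were 1005, 1600 and 2657 and its input reads 147, 272 and 159. The other genes of this group ranged from 1.61 to 2.43 in SK-Mel-103 R1, from 1.54 to 3.03 in UACC-62 R1 and from 2.49 to 3.89 in UACC-62 R3. They encode a dynein light chain (DYNLL2), a bZIP protein (CREBL2), the ubiquitin ligases RNF139 and SIAH1, the glycan kinase POMK, a partner of the small GTPase ARL2 (ARL2BP) and an HD-domain protein (HDDC2).

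**Figure D2:**
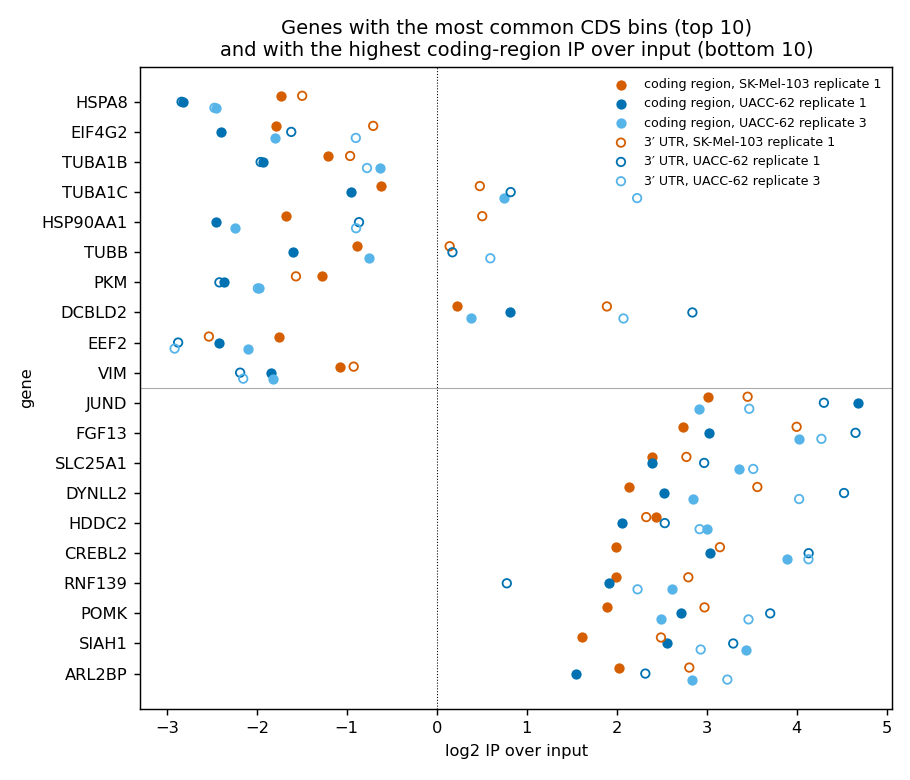
Log2 IP over input (x axis) of the 10 genes with the most common CDS bins (upper block) and of the 10 with the highest coding-region values (lower block), each sample in its own colour, with reads summed over the common bins of the coding region (filled) or of the 3′ UTR (open). Filled points of HSPA8 sit between −2.82 and −1.73 and those of JUND between 2.91 and 4.68, and in DCBLD2, FGF13, DYNLL2 and CREBL2 each coding value lies left of the 3′ UTR value of its sample.

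By number of bins above 0 in all 3 samples, ZNF460 came first with 39 of 40, followed by DCBLD2 with 27 of 46, CELF1 itself with 24 of 26, RNF139 with 18 of 18 and EI24 with 17 of 19. ZNF460, a zinc finger protein, and EI24, a membrane protein of the endoplasmic reticulum, were named after their values had been seen. ZNF460 was at 0.99, 1.58 and 2.27, and EI24 at 1.13, 0.91 and 1.92.

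The mRNA of CELF1 (ENSG00000149187, chr11:47487485-47587121) thus had coding bins above input. They lay in coding exons 3 and 5 to 13 of 13. Their log2 IP over input was 0.91, 1.49 and 1.80 (UACC-62 mean 1.65 ± 0.22, SD, n = 2), with 1732, 1825 and 2264 IP reads against 710, 580 and 400 input reads. The 177 common bins of its 3′ UTR were higher, at 3.08, 3.77 and 3.60. The strongest coding bin lay at position 1536 of 1542 nt, next to the stop codon, and held 114, 121 and 121 IP reads. Only 4 of its 26 coding bins held a UGU.

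The position along the coding sequence was not used in choosing the bins. It is given from the start codon (0) to the stop codon (1), on the transcript with the longest CDS that holds the bin centre. Members were shifted towards the stop codon, with a median of 0.64 (interquartile range 0.41 to 0.84) where the windows of the same genes had 0.49. With the coding sequence cut into 10 equal parts (deciles), the first decile held 78 bins (2.02%) and the last decile 670 (17.4%), whereas the windows were spread almost evenly with 10.8% and 9.55%. Per 100 windows, the number of members was 2.20 in the first decile, 11.1 in the fourth and 21.5 in the last. The last 200 nt before the stop codon held 1229 members (31.8%) and 16.2% of the windows. Each window counted once and was not weighted by the members of its gene. The part of coding sequence length in these shares was not tested.

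The shift was seen in each sample taken alone. All coding bins with more than 30 IP reads had median positions of 0.61, 0.64 and 0.63. It was also seen in 258 of 314 genes with at least 3 bins (82.2%), whose median position lay downstream of the midpoint. The same share over all listed genes is not given. By bin, 65.7% of members lay downstream of the midpoint. This compares with 55.7% of bins of any read count listed in all 3 samples in the same genes, and 49.0% of their windows. The shift was smaller without the filter on reads, with a median of 0.57 and 17.4% of bins within 200 nt of the stop codon. Among the members, with the filter and each gene counted once, the share within 200 nt was 48.0%. No such share is given for the windows. Input reads of listed bins, taken per window, were not even along the coding sequence either. In bins listed in all 3 samples, input reads per window of the member genes were 10.4, 14.1 and 9.95 in the first decile, 43.0, 56.2 and 46.0 in the fifth and 49.2, 60.4 and 50.6 in the last. IP reads per window went from 6.13, 4.89 and 7.48 through 22.5, 18.1 and 29.5 to 31.7, 28.5 and 41.9. Reads were divided by all windows, so a window without a listed bin adds no reads although its input is unknown. The listed bins numbered 911 in the first decile and 2009 in the last, against 3546 and 3122 windows. Input reads per window thus rose mostly upstream of the midpoint, but they depend on how many bins were listed as well as on input per bin. The part of input in the position of the bins was not tested.

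**Figure D3:**
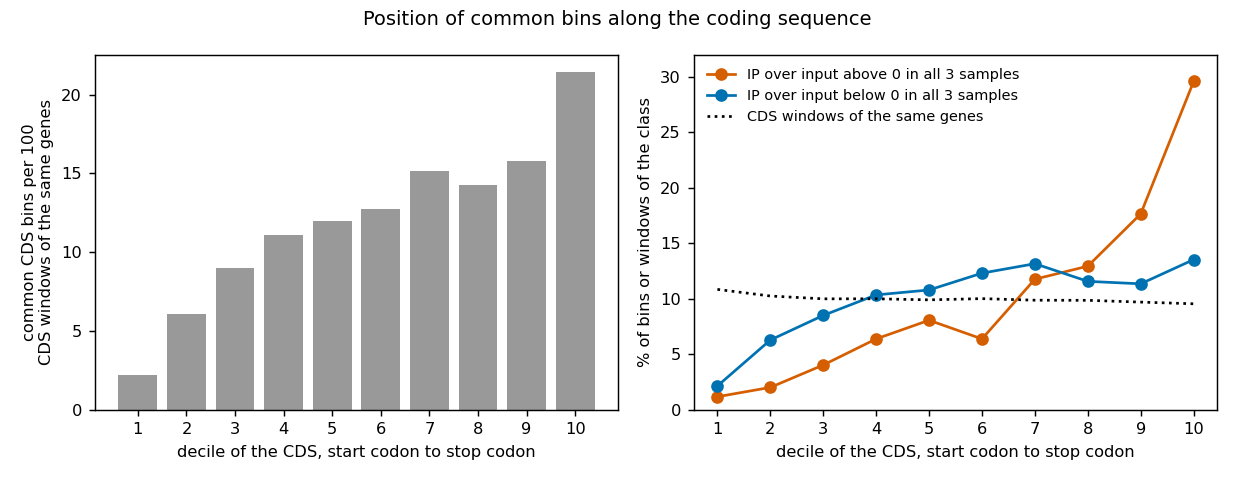
Left, members per 100 windows of 20 bp of the same coding sequences (y axis) in each decile of the coding sequence from start to stop codon (x axis), rising from 2.20 to 21.5. Right, the % of bins of each class (y axis) in each decile, for bins with log2 IP over input above 0 in all 3 samples, below 0 in all 3, and for the windows (dotted); the last decile holds 29.6% of the first class, 13.5% of the second and 9.55% of the windows.

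Bins above input lay closer to the stop codon than those below it, as a description without a test. The 595 bins above 0 in all 3 samples had a median position of 0.78, with 43.4% within 200 nt of the stop codon, and the 2705 bins below 0 had 0.60 and 28.5%. The median log2 IP over input stayed between −1.29 and −1.19 in the first 6 deciles in SK-Mel-103 R1 and was −0.55 in the last. In the last decile it was −1.15 in UACC-62 R1 and −0.66 in UACC-62 R3, which was the highest of the 10 classes in each sample.

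The last coding exon, which in most genes continues into the 3′ UTR, held 1108 members (28.7%) and 16.6% of the windows of the same genes. Of its members, 292 (26.4%) were above 0 in all 3 samples, against 303 of 2753 (11.0%) in earlier coding exons. These counts include 212 members in a CDS of 1 exon, where each bin lies in the last exon. Exon 4 of 4 alone held 42, 44 and 47 members in TUBA1B, TUBA1C and TUBB. The windows were not weighted by the members of each gene, and the part of exon structure was not tested. A run of adjacent common bins reached from the coding region into a 3′ UTR for 201 members (5.21%). Without these, the median position was 0.62 and 28.2% lay within 200 nt of the stop codon. Most runs were short. Of 2189 runs of genomically adjacent bins, 1421 held 1 coding bin, and the longest stretch, 15 bins or 300 nt, lay in TUBA1C. Exon boundaries also end a run here.

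**Figure D4:**
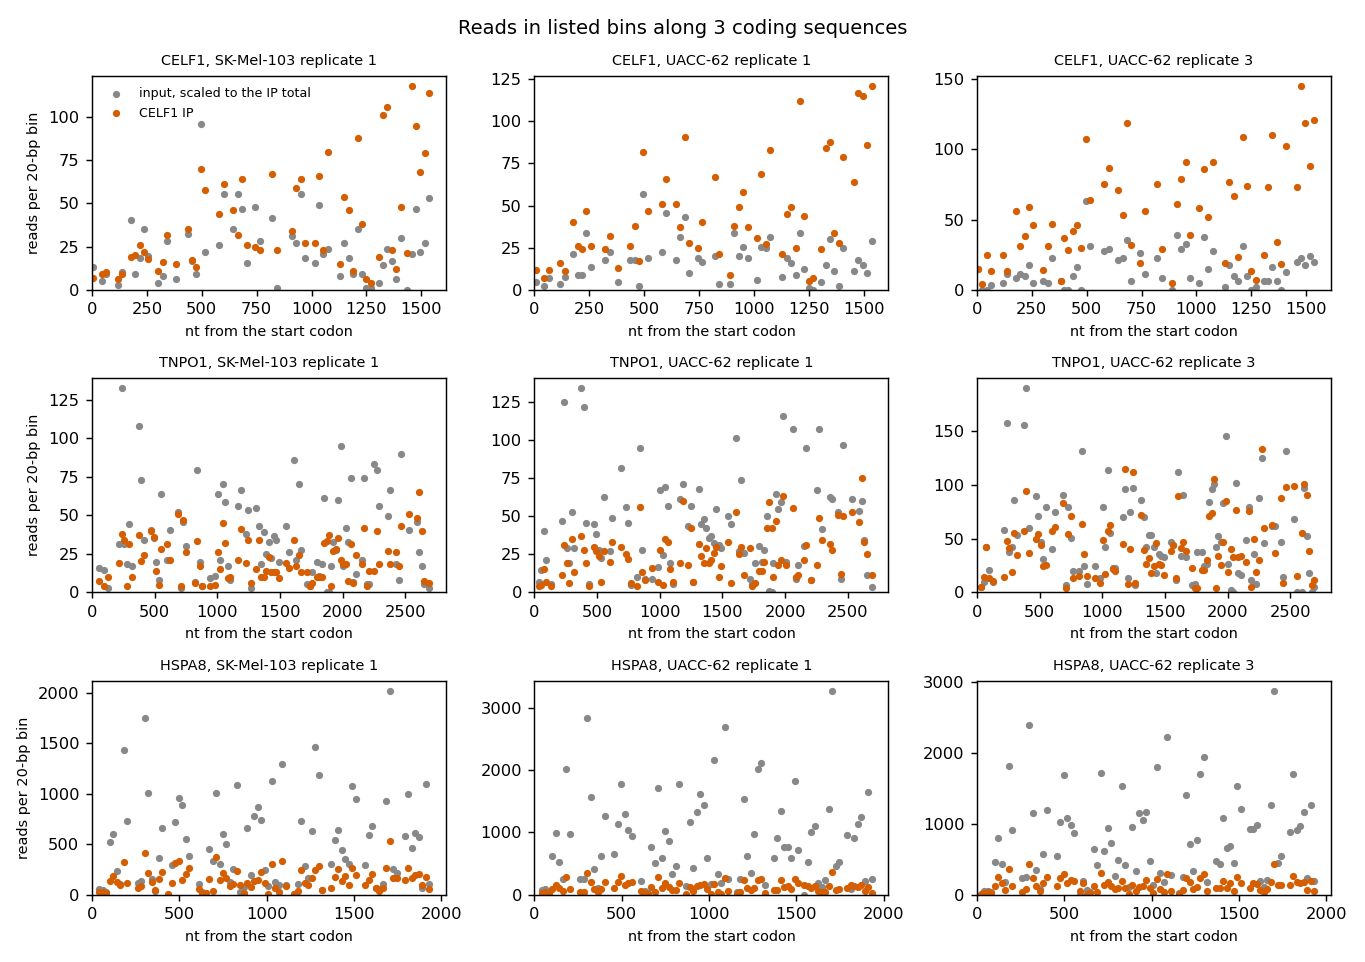
Reads per listed bin of 20 bp (y axis) along the coding sequences of CELF1, TNPO1 and HSPA8 (x axis, nt from the start codon) in the 3 samples, for the IP (orange) and the input scaled by the ratio of IP to input totals (grey); y axes differ between panels, and gaps hold no listed bin. IP lies above input over most of the 3′ part of CELF1, and input far above IP along HSPA8, whose common bins gave log2 IP over input of −1.73, −2.82 and −2.46.

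The coding region was then compared with the 3′ UTR of the same gene, with reads summed over the common bins of each region. This was possible for 470 genes. They are 28.9% of the 1629 genes with a common 3′ UTR bin and all but 64 of the 534 genes with a member. The median difference, coding region minus 3′ UTR, was −0.66 in SK-Mel-103 R1 (interquartile range −1.29 to −0.12), −0.64 in UACC-62 R1 (−1.47 to −0.080) and −0.52 in UACC-62 R3 (−1.09 to −0.082). The UACC-62 mean was −0.58 ± 0.087 (SD, n = 2). The coding region was lower in 377, 368 and 373 of the 470 genes, in 313 (66.6%) in all 3 samples, and higher in all 3 in 40 (8.51%). Over all 5130 genes with bins of any read count listed in both regions in all 3 samples, 52.8% were lower and 13.1% higher in all 3, with medians of −0.47, −0.43 and −0.38. The count of 313 was 480 without SK-Mel-103 R1 and 484 without UACC-62 R1, when only the remaining samples had to be lower.

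The difference between regions of 1 gene was much smaller than the difference between all coding and all 3′ UTR bins. The 470 genes had median 3′ UTR values of −0.15, −0.85 and −0.39, well under those of the 3′ UTR bins as a whole, beside coding values of −0.92, −1.57 and −1.18. Among 188 genes whose 3′ UTR was above 0 in all 3 samples, the coding region was above 0 in 89 and below 0 in 46. The 89 genes with a coding region above 0 and common bins in both regions had median differences of −1.16, −1.22 and −0.82, and 73 of them were lower in the coding region in all 3 samples. The 316 genes with a coding region below 0 had −0.49, −0.30 and −0.37, and 184 were lower in all 3.

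**Figure D5:**
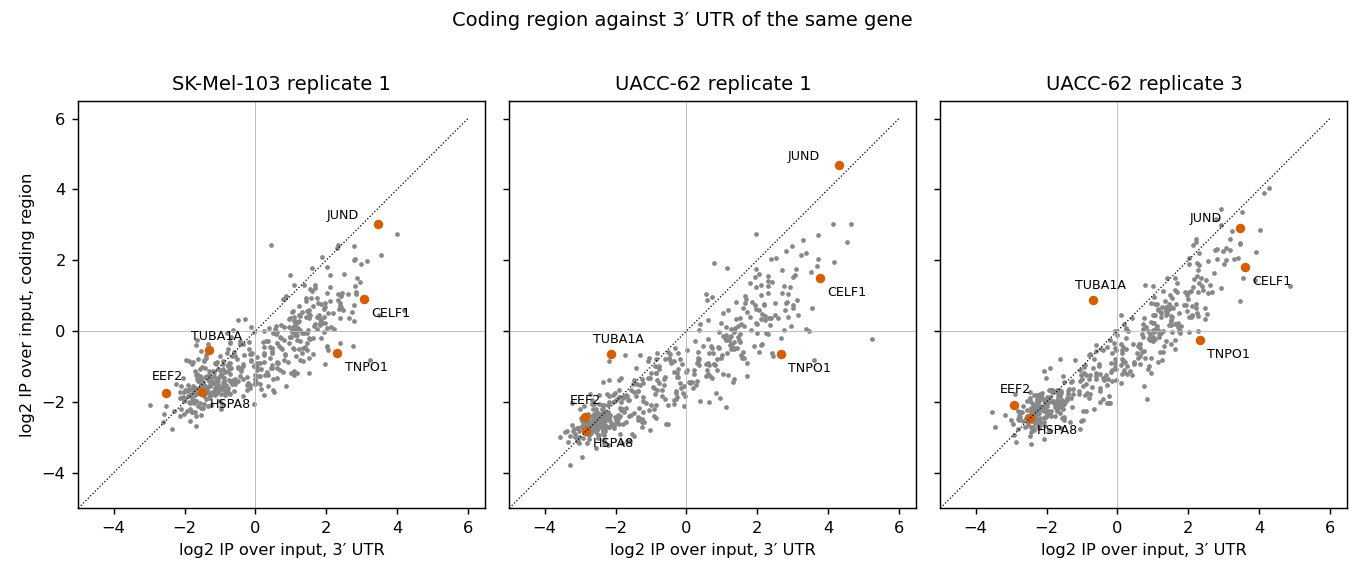
Log2 IP over input of the coding region (y axis) against that of the 3′ UTR (x axis) for 470 genes with common bins in both, 1 panel per sample, with the line of equality dotted and named genes in orange. Most genes lie under the line (377, 368 and 373 of 470), TNPO1 and CELF1 far under it, EEF2 and TUBA1A above it and HSPA8 on or just under it.

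With at least 3 common bins in both regions, 246 genes remained, of which 183 were lower in the coding region in all 3 samples and 18 higher. The largest deficits, by the value nearest 0 of 3 samples, were in TNPO1, EIF3E, NUCKS1, SNU13 and RRM2. TNPO1, a nuclear import receptor, had coding values of −0.61, −0.64 and −0.24 in 20 bins and 3′ UTR values of 2.31, 2.67 and 2.34 in 191 bins, differences of −2.92, −3.31 and −2.58. The coding and 3′ UTR values did not overlap between the samples. Input was missing in single samples at some TNPO1 coding bins, which raises their ratio. It was 0, 1 and 59 reads at position 1874, 0, 0 and 62 at 1894, and 35, 48 and 0 at 2591. The reason was not tested. EIF3E, a subunit of the translation initiation complex eIF3, differed by −2.40, −3.28 and −2.75.

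NUCKS1, a nuclear DNA-binding protein, differed by −2.30, −2.98 and −2.15. RRM2, the small subunit of ribonucleotide reductase, differed by −2.60, −2.85 and −2.07, and SNU13, a protein of the spliceosome and of box C/D RNPs, by −2.19, −2.87 and −2.07. SNU13 was the only one of these 5 with a coding region above 0 in every sample, at 0.55, 0.66 and 1.49.

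The reverse was seen for TUBA1A, EEF2, RPL23, SSR3 and GAPDH, the 5 genes ranked highest by the same rule. EEF2 had coding values of −1.75, −2.42 and −2.10 and 3′ UTR values of −2.53, −2.87 and −2.91, so that both regions lay under 0. GAPDH, a glycolytic enzyme, differed by 0.74, 0.27 and 0.33, SSR3, a subunit of the translocon-associated complex, by 0.64, 0.51 and 0.27, and RPL23, a protein of the large ribosomal subunit, by 0.40, 0.57 and 0.48. TUBA1A differed by 0.76, 1.48 and 1.57. Its 9 coding bins lay in the first part of the coding sequence, from 0.07 to 0.35, and 7 of them hold repeated sequence.

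The 64 genes with common coding bins but no common 3′ UTR bin held 244 members. Ribosomal protein genes made up 15 of these 64, and 74 of all 534 genes with a member. The 15 included RPL10 with 15 bins, RPL10A and RPS18 with 13 each and RPL8 with 12. Replication-dependent histone genes were also present, since 15 of their 26 genes with a member had common bins in both regions. Of the 64 genes, the one with the most bins was mitochondrial MT-CO1, subunit I of cytochrome c oxidase, with 22 bins at −1.77, −1.30 and −1.78. Its annotated coding sequence of 1542 nt spans the whole annotated gene (chrM:5904-7445), so that no bin could be placed in a 3′ UTR. In all, 33 members in 4 genes lay on the mitochondrial genome, for which the build used by the authors and the reference used here may differ slightly.

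Gene groups were counted against the 9.51% of genes with a listed coding bin that had a member. They had been assembled with earlier results of these data known, and no test was made of them. Ribosomal proteins had a member in 74 of 82 listed genes, with 659 bins or 17.1% of all members. Of the 74, none was above 0 and 73 were below 0 in all 3 samples, with medians of −1.75, −2.70 and −2.31. The large-subunit protein RPL4 had the most bins of this group, 30, at −2.17, −2.89 and −2.61. Of the 59 that also had common 3′ UTR bins, the coding region was lower in all 3 samples in 25 and higher in 14. Repeated sequence made up 59.8% of the ribosomal protein bins.

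Chaperones and folding factors of the endoplasmic reticulum had a member in 26 of 34 genes (384 bins), glycolytic enzymes in 10 of 15 (221 bins), translation factors in 19 of 34 (259 bins) and cytoskeletal genes in 15 of 40 (313 bins). No gene of these 4 groups was above 0 in all 3 samples, and 24, 10, 18 and 10 were below 0 in all 3. ENO1, the glycolytic enolase, had 41 bins at −1.36, −2.55 and −2.12, with nearly the same values in its 3′ UTR (−1.53, −2.55 and −1.98). HSP90AB1, a cytosolic chaperone, had 40 bins at −1.51, −2.61 and −2.03 and differed from its 3′ UTR by −1.65, −2.11 and −1.79.

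Replication-dependent histones had a member in 26 of 54 listed genes with 59 bins, all 26 below 0 in all 3 samples. Reads of this family can come from near-identical copies, and 50.8% of its bins hold repeated sequence.

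RNA-binding and splicing proteins had a member in 26 of 59 genes with 197 bins. Of these, 23 were below 0 in all 3 samples and CELF1 was the one above 0. In 24 of 26 the coding region was lower than the 3′ UTR in all 3 samples, with median differences of −1.33, −1.42 and −1.30. NCL, the nucleolar protein nucleolin, had 21 coding bins and differed by −1.82, −2.05 and −1.50, and G3BP1, a stress granule protein, had 18 and differed by −2.22, −2.69 and −1.87.

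Of a group of cell cycle and replication genes, which joins genes that the study linked to CELF1 with others of these functions, 6 of 39 had a member. Its choice is not independent of the IP. UBE2C, the ubiquitin-conjugating enzyme of the anaphase-promoting complex, was above 0 in all 3 samples at 1.08, 1.52 and 2.36 in 8 bins. CDK1, the mitotic kinase, was at −0.22, −0.93 and −0.56 in 6 bins, while its 3′ UTR was at 1.55, 0.77 and 0.75.

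Genes of the extracellular matrix and adhesion had a member in 5 of 26. SERPINE2, a secreted serine protease inhibitor, was the one above 0, at 1.09, 1.83 and 1.28 in 16 bins. One of its bins, at chr2:224842261-224842280 in coding exon 8 of 9, held 98 IP reads in SK-Mel-103 R1, 6447 in UACC-62 R1 and 3900 in UACC-62 R3, the last 2 being the highest of any member in those samples. Its input reads were 39, 1399 and 1114, so that IP and input were both far higher in UACC-62. No gene of the melanocyte and pigment group had a member, and 2 of its 17 genes had a coding bin listed in all 3 samples.

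Genes in no group numbered 324, of which 92 were above and 176 below 0 in all 3 samples. The grouped genes, 210 in number, thus included 3 of the 95 genes above 0, namely CELF1, UBE2C and SERPINE2.

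Repeated sequence, searched in the 32 nt centred on each bin, was more frequent in coding bins (1188, or 30.8%) than in 3′ UTR bins (11.8%). Among the 2673 coding bins with unique sequence, 542 (20.3%) were above 0 in all 3 samples and the medians were −0.84, −1.59 and −1.25. Among the others, 53 (4.46%) were above 0. In addition, 72 members lay in the coding sequence of more than 1 gene and were counted for the gene with the longest CDS, read-through genes last.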

How the data were processed

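RIP-Seq reads (40-nt, rRNA-depleted, first-strand) were aligned by the authors to GRCh37 with TopHat (2.0.4 in the submitters' processing notes; the methods give another release), allowing multiple hits, and called with Piranha in 20-bp bins with the input as covariate. Whole-number counts of IP reads, deposited without normalization, are given for passing bins only. The p-value deposited by the authors is that of Piranha (below 0.05 in each list). The ratio deposited by the authors as covariate scales input reads to a fixed number, with 0.01 for no input. Whole input reads were recovered from it within 0.02 read. Replicates were not pooled by the authors.

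Depth is the sum of reads in listed bins, so input outside them is unknown and IP over input is conditional on passing. The listed strand was reversed to give the transcript strand. Regions came from GENCODE version 44 mapped to GRCh37, in the order 3′ UTR, CDS, with the stop codon in the 3′ UTR.

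No test across bins or genes was run, because the rule used the IP reads. Groups came from the sample titles. Named genes were the 10 with most common CDS bins, the 10 with the highest coding IP over input (lowest of 3 samples, at least 3 bins), the 5 with most bins and no common 3′ UTR bin, the 5 highest and 5 lowest differences from the 3′ UTR, and up to 3 of each of 11 gene groups. Values of 1 group and of a named gene in it are not reported here. Members, groups and rules were chosen with earlier results of these data known. Repeats were 32-nt stretches, the bin with its flanks, found more than once on either strand. Alternatives covered reads, p-value, strand, region order, transcripts, totals, pseudocount, repeats and leaving out each sample. The steps were tested on simulated data. The scripts ran under Python 3.11.15 with pandas 2.3.3, numpy 2.4.6, numba 0.67.0, scipy 1.17.1 and matplotlib 3.10.9.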

Additional observations from a re-analysis of the deposited data

Results flagged for a closer look

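Among the 54 genes named by rule, 4 had a difference between coding region and 3′ UTR of one sign in SK-Mel-103 and the other in both UACC-62 replicates. This difference is described for each. It was −0.23 in SK-Mel-103 R1 for HSPA8, against 0.02 and 0.01 in UACC-62 R1 and R3, and −0.25 for TUBA1B, against 0.03 and 0.14. It was −0.15 for VIM, against 0.34 and 0.33, and −0.80 for RNF139, against 1.13 and 0.38. The difference between the cell lines was not tested in any of them, and SK-Mel-103 has 1 sample. The 3′ UTR of RNF139 rests on 1 common bin, and 36 of 75 coding bins of HSPA8 and 45 of 56 of TUBA1B hold repeated sequence. The pattern is not particular to these 4 genes. It was also present in RPS6 (−0.29, 0.33 and 0.12) and RPL5 (−0.24, 0.60 and 0.80), which were not named by rule. Its share over all 470 compared genes was not counted.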

How the results depend on the processing

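Of 135 values under 15 alternatives, 81 stayed within 1.5 times (counts), the binomial interval (shares) or the SD between the UACC-62 replicates, 51 moved and 3 changed sign. A p-value under 0.01, a pseudocount of 0.5 read and sums over every listed bin moved none. With more than 100 IP reads there were 395 coding bins in 87 genes (7.24% of common bins), 7.09% of them above 0 and 21.8% with a UGU. The median difference from the 3′ UTR was then −0.79 in SK-Mel-103 R1 and −0.51 in UACC-62 R1, and 47 genes were lower in all samples. Without a filter on reads there were 73837 bins in 5615 genes (26.1%), with a median position of 0.57, 17.4% within 200 nt of the stop codon, 8.65% above 0, median differences of −0.47, −0.43 and −0.38 and 2709 genes lower. With the listed strand taken as the transcript strand, 29 bins in 13 genes remained (0.0940%), at a median position of 0.73, 55.2% near the stop codon, 79.3% above 0 and 20.7% with a UGU. Their differences had the opposite sign, 0.037, 0.42 and 0.14, with 1 gene lower. With the CDS placed before the 3′ UTR, the share was 13.7%, the position 0.67, the share near the stop codon 36.4% and that above 0 16.7%. With whole bins in the CDS, the share was 11.5%, and 30.2% lay near the stop codon. With one transcript per gene these were 13.3% and 35.1%, at a position of 0.66. Reads not divided by totals put 18.2% above 0. Counting each gene once gave a position of 0.67 and 48.0% near the stop codon. Without repeated sequence the share was 10.2%, the position 0.66, 20.3% lay above 0, and the differences were −0.77 in SK-Mel-103 R1 and −0.82 in UACC-62 R1. Leaving out each sample in turn gave 4073 to 6087 bins, 564 to 785 genes, shares of 12.4% to 14.5%, positions of 0.63 to 0.65, 29.7% to 31.3% near the stop codon, 16.4% to 26.1% above 0, 350 to 484 genes lower, and differences of −0.66 to −0.62 (SK-Mel-103 R1), −0.67 to −0.61 (UACC-62 R1) and −0.56 to −0.47 (UACC-62 R3). Fewer samples then had to pass. Other causes were not tested. No paired analysis was possible because the values come from no test between groups of samples, to which a replicate block could be added. IP and input, and coding region and 3′ UTR, were set against each other within each sample. Depth limits genes such as JUND, with 8 to 27 input reads.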
